A study of Homo sapiens with 6 samples.

Results

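The CLIC (chloride intracellular channel) family comprises 6 human genes, CLIC1 to CLIC6, and all 6 were matched by symbol among the 58735 genes of the expression table. The family was chosen by the FPKM values of 1 member, CLIC3, which differed between the groups compared here. Values from that contrast are therefore given for the members as a description. Where a member is said to pass or miss a threshold, this describes the values that chose the family and supports nothing. RNA was measured by paired-end sequencing in HOK-16B, an immortalized line derived from keratinocytes of the human oral epithelium. Per the series description the cells were stimulated to inflammation after pretreatment, and the labels name no stimulus, dose or time. The 3 vehicle libraries came from cells treated with vehicle excipient and the 3 CBD libraries from cells treated with CBD (cannabidiol, a non-intoxicating cannabis compound). Every library is from this 1 line, although the free-text descriptions number the line differently in each sample, and no unstimulated group was analysed here.

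CLIC proteins exist in a soluble form with a fold like that of the glutathione transferases, and can insert into membranes. In the soluble form they have a redox-active site like that of glutaredoxins, and they have been linked to the actin cytoskeleton, vesicle traffic and integrin recycling as well as to anion currents. In epithelia CLIC1 and CLIC4 are widely expressed. CLIC4 is known for moving between cytoplasm and nucleus in keratinocytes, and CLIC3 for the return of integrins from late endosomes to the cell surface.

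The members differ in base composition. The libraries differed in mean GC content per fragment, which was taken from each gene's annotated transcripts and not from the reads. The coding sequences were therefore compared first. A stretch of 90 coding bases from the middle of CLIC3 is shown with the aligned bases of CLIC1 and CLIC4, the other members with substantial expression. Capitals mark G and C.
CLIC3: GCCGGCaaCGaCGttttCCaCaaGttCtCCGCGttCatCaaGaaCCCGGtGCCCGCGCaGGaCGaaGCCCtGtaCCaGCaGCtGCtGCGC
CLIC1: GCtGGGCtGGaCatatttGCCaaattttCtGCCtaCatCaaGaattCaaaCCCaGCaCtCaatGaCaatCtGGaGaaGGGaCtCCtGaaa
CLIC4: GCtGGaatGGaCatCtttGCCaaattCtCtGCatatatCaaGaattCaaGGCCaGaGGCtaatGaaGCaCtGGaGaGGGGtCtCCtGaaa
The sequences are GENCODE 29 principal transcripts (GRCh38), printed 5′ to 3′ on the coding strand, and each stretch spans 2 coding exons. They lie at chr9:136995083-136995252 (minus strand), chr6:31732376-31733632 (minus strand) and chr1:24827050-24839882 (plus strand), introns included. Of the 90 bases 57 were G or C in CLIC3, 40 in CLIC1 and 41 in CLIC4. CLIC1 had the same base as CLIC3 at 49 positions and CLIC4 at 52. Over the whole coding sequence CLIC3 was 59.6% identical to CLIC1 and 53.3% to CLIC4, and CLIC1 was 64.7% identical to CLIC4. The third position of codons was G or C at 93.2% in CLIC3, 63.9% in CLIC1 and 48.2% in CLIC4. The CLIC3 value exceeded that of 99.7% of 10643 tested coding genes, whose median was 58.2%. CLIC2, CLIC5 and CLIC6 had 44.1%, 69.3% and 71.1%. Coding length was 236 codons in CLIC3, 241 in CLIC1, 253 in CLIC4, 247 in CLIC2, 251 in CLIC5 and 686 in CLIC6.

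Levels spanned a wide range. They are given as FPKM, fragments scaled to gene length and library depth, which allows comparison between genes. CLIC1 was highest with a mean of 109.8 FPKM over the 6 libraries, followed by CLIC4 with 59.2 and CLIC3 with 10.5. CLIC2 had 0.277, CLIC6 0.0231 and CLIC5 0.00153 FPKM. The ranges of CLIC1, CLIC4, CLIC3 and CLIC2 did not overlap between neighbours in this order, whereas CLIC6 and CLIC5 both included 0. Only 222 genes of the table had a higher mean than CLIC1, against 535 for CLIC4 and 4241 for CLIC3. Genes entered the test across the transcriptome at a mean of at least 1 FPKM, which 3 of the 6 members reached. CLIC3, with 10.5, was the lowest member inside that limit and well above it, and CLIC2, with 0.277, was the highest outside.

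CLIC3 (ENSG00000169583; chromosome 9, 136994635 to 136996803, minus strand) was the member that stood apart between the groups. Vehicle replicates 1 to 3 had 7.85, 6.70 and 6.54 FPKM, and CBD replicates 1 to 3 had 13.1, 14.6 and 14.2. All CBD values lay above all vehicle values, and the gap between the groups was wider than the range within either. The means were 7.03 ± 0.713 and 14.0 ± 0.753 FPKM (SD, n = 3 each), a ratio of 1.99. Counted fragments numbered 211, 173 and 151 in vehicle and 369, 398 and 344 in CBD. Summed per group these were 535 (95% exact Poisson interval 491 to 582) and 1111 (1047 to 1178), intervals that cover counting error only. On the log2(FPKM + 1) scale, which understates changes of low genes, the difference was 0.90 ± 0.08 (SE, limma). CLIC3 was among the 0.352% of the 12517 genes in the fit with a Benjamini-Hochberg adjusted p under 0.05 (limma). The family was chosen because CLIC3 differed in this contrast, so its place among these genes is no test of the family. CLIC3 was not among such genes without vehicle replicate 3, where the difference was 0.86, or without CBD replicate 1, 2 or 3, where it was 0.94, 0.87 and 0.89. Nor was it among them with the replicate number as a block, without the intensity trend of the variance or without the filter on low values, where the difference stayed 0.90. Hardly any gene passed in these fits. Counts higher and lower were 0 and 0 without vehicle replicate 3 or without CBD replicate 1 or 2. With the block or without the filter they were also 0 and 0. Without CBD replicate 3 they were 1 and 0, and without the intensity trend 0 and 1.

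CLIC1 (ENSG00000213719; chromosome 6, 31730581 to 31739763, minus strand) was nearly level. Vehicle replicates 1 to 3 had 107, 110.1 and 109 FPKM, and CBD replicates 1 to 3 had 112, 111 and 109. The groups overlapped, since vehicle replicates 2 and 3 lay above CBD replicate 3. The coefficient of variation was 1.66% in vehicle and 1.43% in CBD, and the log2 difference was 0.03 ± 0.04 (SE, limma). Its sign turned with quantile normalization (-0.01) and with the GC trend removed (-0.03). The 3′ end of CLIC1 overlaps DDAH2, an arginine-metabolism gene on the same strand, which had a mean of 3.94 FPKM.

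CLIC4 (ENSG00000169504; chromosome 1, 24745357 to 24844324, plus strand) had 68.8, 59.1 and 58.3 FPKM in vehicle replicates 1 to 3. CBD replicates 1 to 3 had 56.3, 57.4 and 55.4. Every CBD value lay below every vehicle value, but vehicle replicates 2 and 3 stood within a few FPKM of CBD and vehicle replicate 1 stood well above them. The means were 62.1 ± 5.84 and 56.3 ± 1.02 FPKM (SD, n = 3), and the log2 difference was -0.13 ± 0.07 (SE, limma). It was -0.06 without vehicle replicate 1. CLIC3 and CLIC4 were thus the members of the 3 tested whose groups did not overlap, 1 upward and 1 downward. That was so for 40.7% of all tested genes, 18.7% upward and 21.9% downward.

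**Figure D1:**
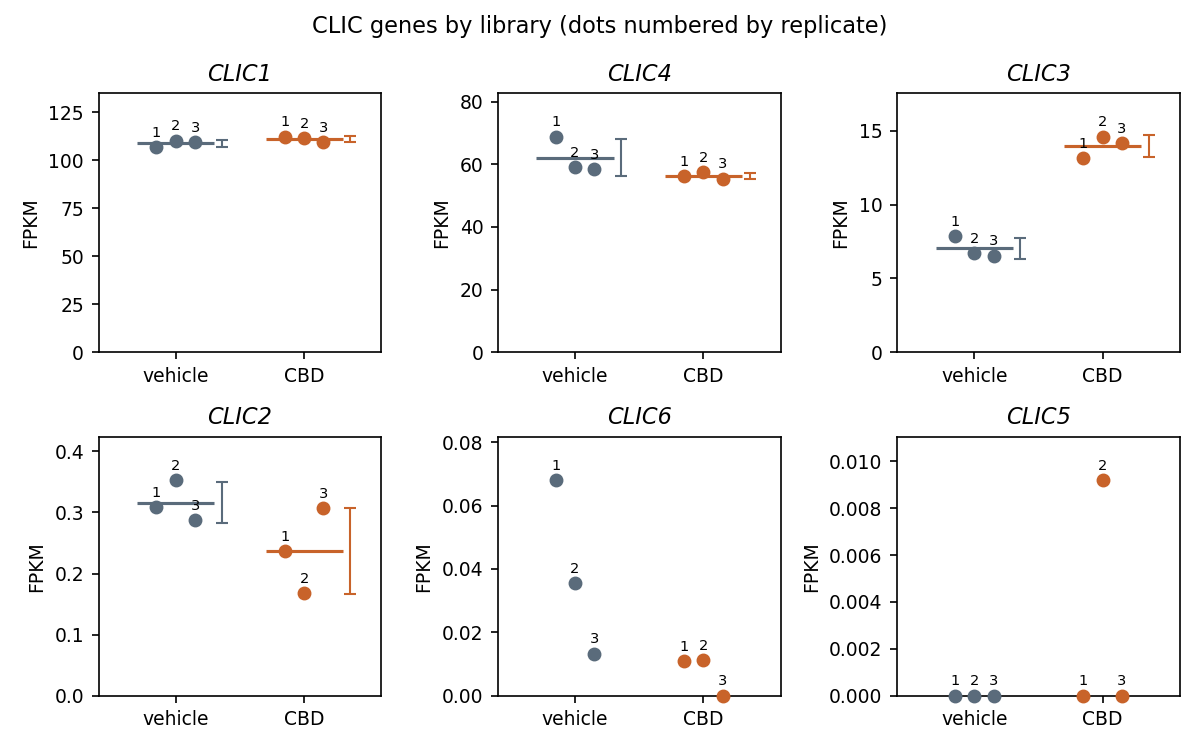
FPKM of the 6 CLIC genes in each library (dots, numbered by replicate), each panel with its own linear axis from 0; horizontal lines are group means and bars SD, omitted for CLIC5 and CLIC6, which rest on 0 to 6 fragments per library. CLIC3 shows separated groups, CLIC1 overlapping ones, and CLIC4 a high vehicle replicate 1.

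The other 3 members were low, and CLIC5 and CLIC6 were near the limit of detection. CLIC2 (ENSG00000155962; chromosome X, 155276211 to 155334657), known as a regulator of ryanodine receptor calcium channels, had 0.308, 0.353 and 0.287 FPKM in vehicle. In CBD it had 0.236, 0.167 and 0.307, so the groups overlapped. Its fragments numbered 16 to 22 and 11 to 18 per library. Summed over each group these were 58 (95% exact Poisson interval 44.0 to 75.0) and 45 (32.8 to 60.2). CLIC6 (ENSG00000159212; chromosome 21, 34669389 to 34718227), the member with a long extension before the shared domain, had 6, 3 and 1 fragments in vehicle and 1, 1 and 0 in CBD. For CLIC6 a floor of 3 fragments corresponds to 0.0326 to 0.0396 FPKM, and all but vehicle replicate 1 had 3 fragments or fewer. CLIC5 (ENSG00000112782; chromosome 6, 45880827 to 46080348), known for linking membranes to the actin core of stereocilia and podocyte processes, had 2 fragments in CBD replicate 2 and 0 in the other libraries. Differences of CLIC5 and CLIC6 were not detectable at this depth. In bulk RNA, fewer cells with a transcript and less of it per cell cannot be told apart.

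The family's summed level was 178 ± 4.84 FPKM in vehicle and 182 ± 2.32 in CBD (SD, n = 3), while its makeup differed. CLIC3 made up 4.27%, 3.80% and 3.74% of the sum in the vehicle libraries and 7.22%, 7.96% and 7.91% in the CBD libraries. CLIC1 made up 61.1% ± 2.60 and 61.1% ± 0.529, and CLIC4 34.8% ± 2.30 and 31.0% ± 0.193. Ratios between genes of one library do not depend on how libraries are scaled. A trend with GC content does not cancel in them. The part removed with that trend, described below, is given in log2 units. It was 0.33 for CLIC3, whose difference was 0.90, and 0.06 for CLIC1, whose difference was 0.03. For CLIC4 it was -0.15, beside a difference of -0.13. CLIC3 stood at 7.35, 6.08 and 5.97 per 100 of CLIC1 in vehicle and 11.7, 13.1 and 13.0 in CBD. Set against CLIC4 the vehicle libraries were close together, at 11.4, 11.3 and 11.2 per 100, and CBD libraries had 23.4, 25.5 and 25.6. Vehicle replicate 1 was thus highest in vehicle for both CLIC3 and CLIC4, and its ratio of the pair did not stand apart.

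GC content moved with the groups, and with the members' differences. The mean transcript GC content per fragment was 49.6%, 50.3% and 50.0% in vehicle replicates 1 to 3. It was 50.7% to 50.8% in the CBD libraries, so the groups did not overlap. Within vehicle, CLIC3 did not rise with it. Vehicle replicate 1, with the lowest GC content, had the most CLIC3 (7.85 FPKM), and vehicle replicate 2, with the highest, had 6.70. Across 12510 genes, which are not independent replicates and share the same 6 libraries, the log2 difference rose with GC content (Spearman 0.67, a description). CLIC3 transcripts had a GC content of 68.4%, above 99.3% of tested genes, against 53.6% for CLIC1 and 40.0% for CLIC4. The median difference was 0.24 in the GC-richest decile, which holds CLIC3, 0.05 in the decile of CLIC1 and -0.14 in that of CLIC4. CLIC1 and CLIC4 thus lay at the level of their deciles, and CLIC3 above its own. The median GC content of the GC-richest decile was 63.9%, below that of CLIC3, so its median difference understates the trend there. The part removed with the trend was 0.33 for CLIC3. With a loess trend on GC content removed from each library, CLIC3 kept 0.57 ± 0.13 (SE), CLIC1 had -0.03 ± 0.03 and CLIC4 0.01 ± 0.04. CLIC3 was then not among the genes with a limma adjusted p under 0.05, which were 4 higher and 4 lower. Before removal 26 tested genes had a larger rise than CLIC3, and after it 95 had. The part of GC content in these differences was not tested beyond this removal.

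The genes beside CLIC3 give a local comparison at high GC content, although below the 68.4% of CLIC3, so they are not matched to it. PAXX, a DNA end-joining factor gene 0.651 kb away (chromosome 9, 136992418 to 136993984, plus strand; GC content 65.0%), had 19.8, 21.8 and 20.0 FPKM in vehicle. In CBD it had 18.7, 22.5 and 20.2, so the groups overlapped (log2 difference -0.01 ± 0.08; limma adjusted p = 0.959). With the GC trend removed it stood at -0.27. ABCA2, a lipid transporter gene of endosomes and lysosomes on the other side (137007227 to 137028922; GC content 63.8%), had 4.96, 5.20 and 4.48 FPKM in vehicle and 5.87, 5.70 and 5.81 in CBD. Its difference was 0.21 ± 0.06 (limma adjusted p = 0.0866) and -0.03 with the GC trend removed. LCNL1 and FUT7, the next coding genes outward, had 0 or 1 fragment in every library.

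**Figure D2:**
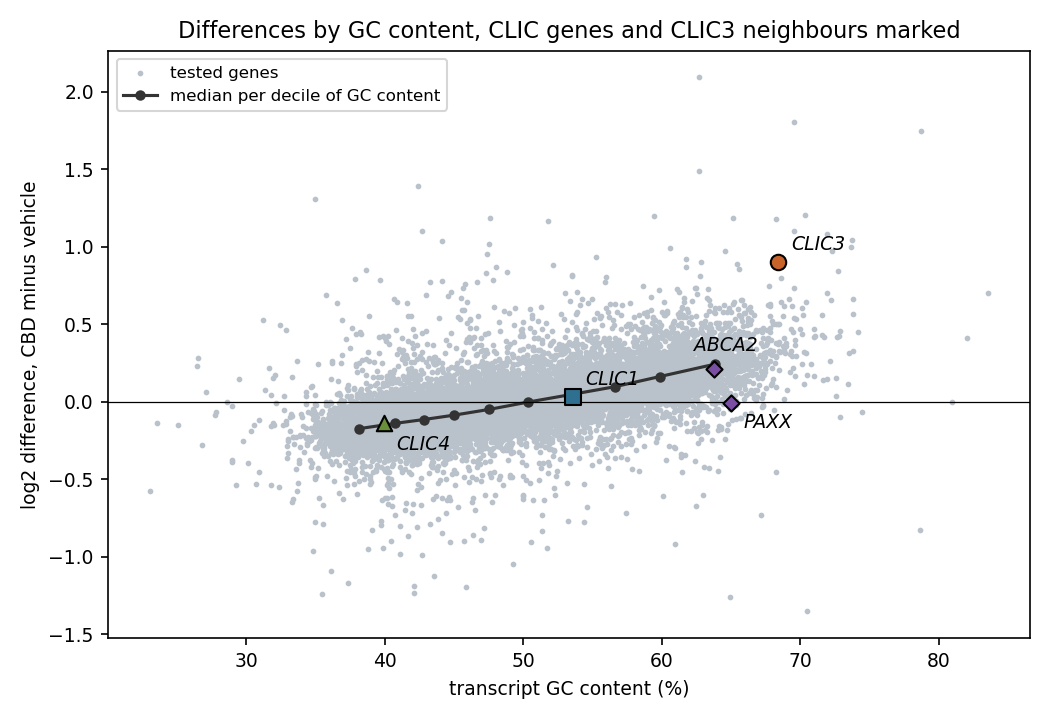
Log2 difference (CBD minus vehicle, log2(FPKM + 1) scale) against transcript GC content for the tested genes (grey), with the median of each GC decile placed at its median GC content (black line). CLIC1 and CLIC4 lie on the decile line. CLIC3 and its neighbour PAXX lie beyond its last point (63.9% GC), CLIC3 above its level, at 0.90, and PAXX below, at -0.01.

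**Figure D3:**
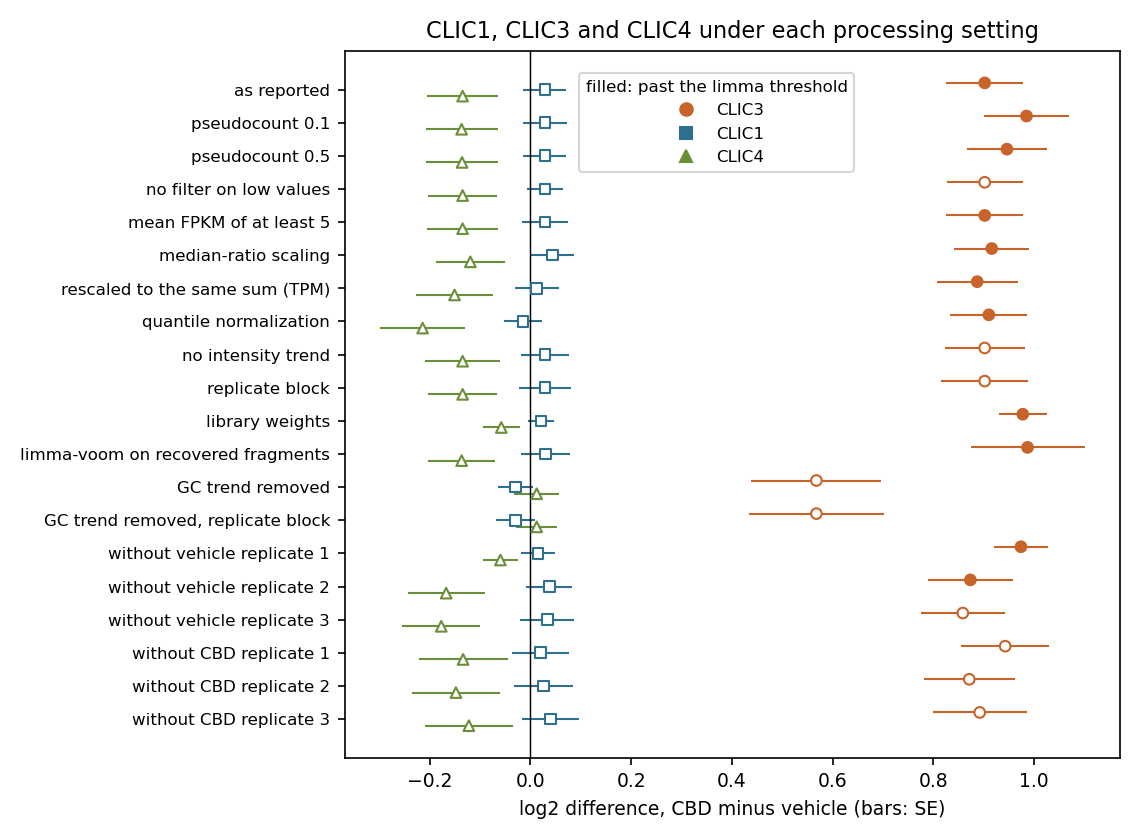
Log2 difference of CLIC1, CLIC3 and CLIC4 with SE under each processing setting; filled symbols mark an adjusted p under 0.05 in that fit, shown as a description. CLIC3 lies between 0.57 and 0.99 under the 19 alternatives and CLIC1 and CLIC4 lie between -0.21 and 0.04.

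The expression pattern most like that of CLIC3 over the 6 libraries was that of ESPN, which encodes the actin-bundling protein espin (Pearson r = 0.999 on log2 values). ESPN had 0.800, 0.675 and 0.638 FPKM in vehicle and 1.31, 1.40 and 1.38 in CBD, with a GC content of 67.8%. Next were FAM131A (r = 0.993), CMTM3 (0.993), TBC1D2B (0.992) and the MAP kinase kinase gene MAP2K6 (0.990), of which MAP2K6 had a GC content of 40.2%. An r above 0.95 was shared by 112 tested genes. ESPN and MAP2K6, with vehicle means of 0.704 and 0.990 FPKM, reached the mean of 1 FPKM needed to enter the ranking only through the CBD libraries. The correlations describe 6 points that share the group difference and the libraries, and they rest on the CLIC3 values that chose the family, so no p is given.

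Near-identical sequence elsewhere can take reads from a gene. Counts at the 4 annotated pseudogenes CLIC1P1, CLIC4P1, CLIC4P2 and CLIC4P3 are given here. How reads that match several places were handled is not stated, so these counts cannot show how many reads the members lost. CLIC4P1 also lies within the noncoding gene LINC01239 on the same strand, which had 26 to 51 fragments per library. CLIC4P1 had 9, 7 and 6 fragments in vehicle and 3, 10 and 17 in CBD, against 5133 to 7068 for CLIC4. CLIC4P3 had 1 to 3 fragments per library, CLIC1P1 had 1 in CBD replicate 3, and CLIC4P2 had 0 in all libraries.

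Genes that act beside the family were examined in 3 lists. Of 45 chloride channel and transporter genes outside the family 27 were tested, and none was called in either direction (limma, Benjamini-Hochberg, which called 0.352% of all tested genes). An unadjusted p under 0.05 was found for 9 of them, near the 31.4% of all tested genes. TTYH3, a tweety-family membrane protein gene, came nearest, with 13.4, 15.5 and 14.1 FPKM in vehicle and 20.4, 19.3 and 19.2 in CBD (log2 difference 0.43 ± 0.06; limma adjusted p = 0.0502). The TTYH3 groups did not overlap; with the GC trend removed its difference was 0.18. LRRC8D, a subunit of volume-regulated anion channels, had 15.9 ± 0.885 and 13.1 ± 0.541 FPKM (limma adjusted p = 0.0636). CLNS1A, which encodes a chaperone of spliceosomal particle assembly first described as a chloride current regulator, had 32.4 ± 1.37 and 28.0 ± 0.421 (0.0699). The anion exchanger gene SLC26A6 had 9.65 ± 0.283 and 10.9 ± 0.516 (0.102). The log2 differences of LRRC8D, CLNS1A and SLC26A6 were -0.26, -0.20 and 0.16. With the GC trend removed they were -0.20, -0.10 and 0.02. The list's median difference was -0.02, with 13 genes above 0 and 14 below, against a median of -0.01 over all tested genes. In 12 of the 27 the groups did not overlap (7 upward, 5 downward), a share near the 40.7% of all tested genes. Limma-voom on fragments recovered from the FPKM values called 5 of the 27, where it called 13.9% of all tested genes.

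Of 30 genes with a glutathione transferase fold or with thiol-disulfide exchange functions 29 were matched by symbol, 23 were tested and none was called (limma, which called 0.352% of all tested genes). An unadjusted p under 0.05 was found for 2, against 31.4% of all tested genes, and limma-voom called 1, against 13.9%. GLRX3, a cytosolic monothiol glutaredoxin gene, had 23.0, 18.3 and 18.4 FPKM in vehicle and 16.5, 16.1 and 16.3 in CBD (limma adjusted p = 0.106). Its groups did not overlap and vehicle replicate 1 was the highest. GSTCD, named for its glutathione transferase domain, had 7.25 ± 0.822 and 6.11 ± 0.327 FPKM (0.133). The glutathione transferase gene GSTA4 had 7.12 ± 0.284 and 6.61 ± 0.104 (0.233), and TXNRD2, the mitochondrial thioredoxin reductase, 2.69 ± 0.280 and 3.11 ± 0.272 (0.236). The log2 differences of GLRX3, GSTCD, GSTA4 and TXNRD2 were -0.27, -0.21, -0.09 and 0.15. With the GC trend removed they were -0.19, -0.10, 0.02 and -0.004. The list's median was -0.04, with 10 above 0 and 13 below.

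Of 30 genes for reported partners of CLIC proteins 22 were tested and none was called (limma, 0.352% of all tested genes). The 7 with an unadjusted p under 0.05 are near the 31.4% of all tested genes, and limma-voom called 1 of the 22, against 13.9% of all. ITGB1, the integrin beta-1 subunit whose recycling has been linked to CLIC3, had 132, 119 and 127 FPKM in vehicle and 109, 108 and 108 in CBD. The ITGB1 groups did not overlap, and the log2 difference was -0.21 ± 0.05 (limma adjusted p = 0.0716), or -0.07 with the GC trend removed. The bromodomain gene BRD7 had 11.0 ± 0.562 and 9.60 ± 0.334 FPKM (limma adjusted p = 0.0889). SLC9A3R1 (also NHERF1), a scaffold that binds ezrin, had 86.2 ± 6.0 and 97.5 ± 2.59 (0.112). SMAD7, the inhibitory SMAD of TGF-beta signalling, had 2.41 ± 0.532 and 3.36 ± 0.444 (0.116), with overlapping groups. The log2 differences of BRD7, SLC9A3R1 and SMAD7 were -0.18, 0.18 and 0.36. With the GC trend removed they were -0.13, -0.01 and 0.255. The list's median was -0.02, with 11 genes on each side of 0.

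**Figure D4:**
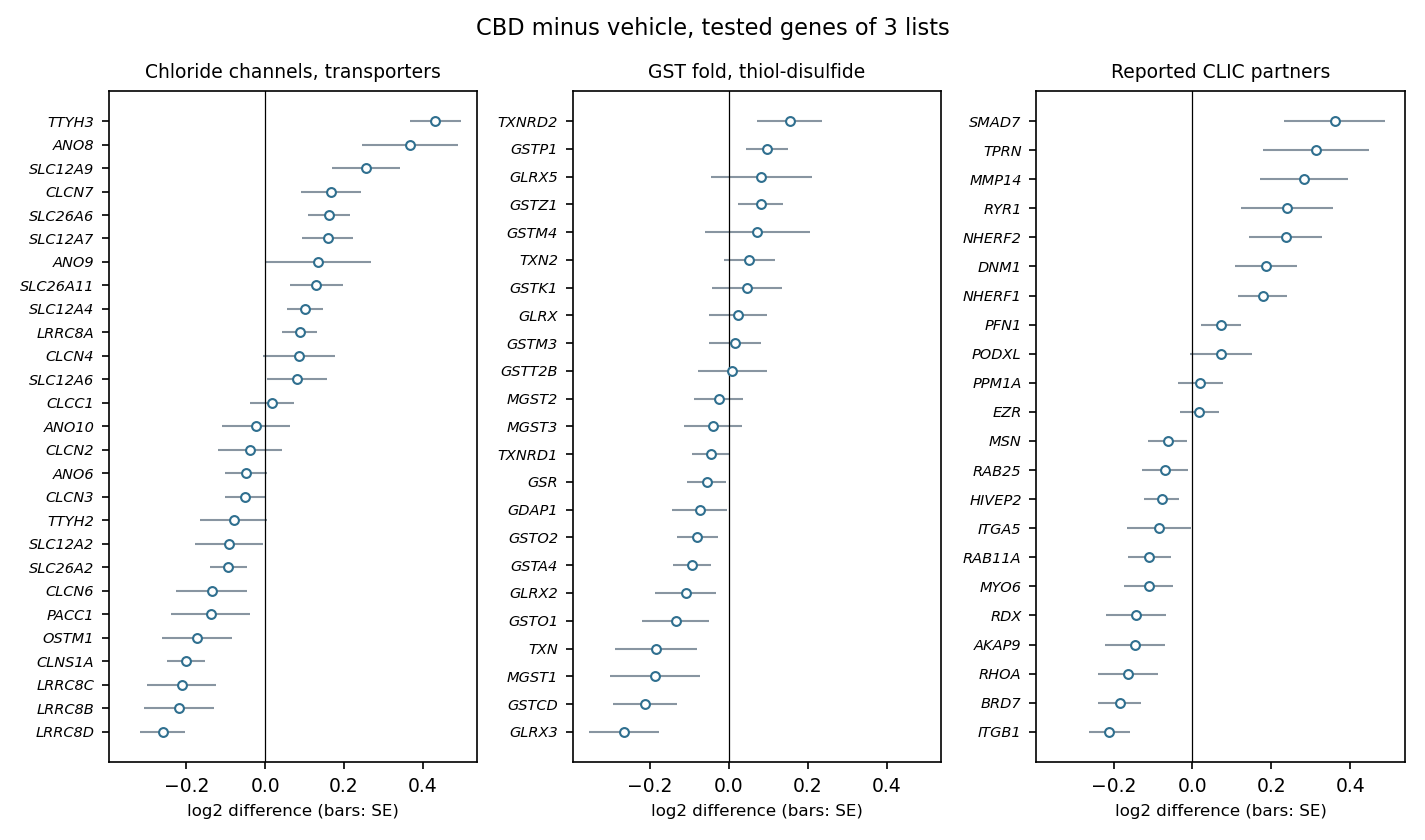
Log2 difference (CBD minus vehicle) with SE for the 27, 23 and 22 tested genes of the 3 lists, ordered within each panel. Genes lie on both sides of 0 in every list, between -0.27 and 0.43, and none passed the adjusted threshold.

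The libraries held 18213784 to 22158614 fragments counted in genes. On the first principal component vehicle replicate 1 had the most distant score, -25.1, while vehicle replicates 2 and 3 had 0.739 and -9.36 and the CBD libraries 10.3 to 12.7. The keratinocyte label fits the markers, since all 8 were above 1 FPKM, from TP63 at 59.5 to KRT5 at 3104 in vehicle and 3556 in CBD. Their summed level was 8193 to 9789 FPKM in vehicle and 10293 to 10817 in CBD. All 6 endothelial markers had a mean under 0.1 FPKM, as did 5 of 6 leukocyte markers, the exception being CD14 with 2.49 FPKM in vehicle and 2.54 in CBD. The leukocyte sum was 2.13 to 3.11 FPKM in vehicle and 2.18 to 3.15 in CBD. Of 6 melanocyte markers SOX10, DCT and TYR were under 0.1, while PMEL had 0.928 and 1.15 FPKM and MITF 0.525 and 0.469. The melanocyte sum was 1.62 to 2.05 FPKM in vehicle and 2.07 to 2.11 in CBD. Among 6 fibroblast markers COL1A2, DCN and LUM were under 0.1, while COL1A1 had 7.13 and 8.69 FPKM. The fibroblast sum was 7.40 to 8.14 in vehicle and 9.31 to 9.41 in CBD. The part of these marker levels in the CLIC3 difference was not tested. Nothing in the labels states that the replicates were separate cultures. The p-values therefore cover the spread between these 6 samples alone, and part of it may be technical.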

How the data were processed

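The authors deposited 1 table of FPKM values per gene and library, with 1 column per replicate in the file headers. An aligner, HISAT2 2.0.5, and a counter, featureCounts 1.5.0-p3, are listed in the submitters' processing notes; build, annotation, strand setting and filters are not given in the sources used here. Identifiers were matched to GENCODE 29 (58735 of 58735). Multiplying FPKM by exon-union length and by a factor fitted to each library made 100% of values whole fragments (tolerance 0.01). Groups and replicate numbers came from the titles, which write NC for the group called vehicle here.

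Differences were fitted on log2(FPKM + 1) for 12517 genes with mean FPKM of at least 1, by limma 3.58.1 in R 4.3.3 with an intensity trend, two-sided, with Benjamini-Hochberg adjustment over all tested genes (threshold 0.05). The GC correction used a loess trend (span 0.3). With 3 libraries per group an exact permutation test cannot go below 0.1. Coding sequences were aligned with Biopython 1.88. The members and lists were chosen with earlier results of these data known. Named genes are the members, the 4 genes of smallest p per list, the 5 most like CLIC3, its 2 nearest coding genes on each side, and the highest cell type markers. The 19 alternatives covered pseudocount, filter, scaling, variance prior, weights, limma-voom, GC content, the replicate number as a block, and each library left out in turn.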

Additional observations from a re-analysis of the deposited data

How the results depend on the processing

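CLIC3 stayed above 0 in all 19 alternatives (0.57 to 0.99) and had an adjusted p under 0.05 in 10 of them, which describes the value that chose the family and is no test of it. It moved beyond its replicate spread where the GC trend was removed (0.57, with or without the replicate block). No CLIC member (0) was called without the filter on low values, without the intensity trend, with the replicate block or with the GC trend removed, and leaving out 1 library gave 0 to 1. CLIC1 lay above 0 in 16 alternatives and CLIC4 below 0 in 17; neither was called in any. CLIC4 turned to 0.01 with the GC trend removed. The labels do not state whether replicate numbers pair the samples. Deviations of same-numbered libraries correlated at -0.0027, 0.0523 and 0.0235, and those of differently numbered ones at -0.0522 to 0.0282. With so few libraries these values cannot decide whether samples were paired. The replicate block left 0 genes higher and 0 lower, against 32 and 12 as reported.

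Other counts of genes higher and lower were 0 and 0 without the filter, 427 and 305 at mean FPKM of at least 5, 56 and 17 with median-ratio scaling, 2 and 2 rescaled to the same sum, 54 and 19 with quantile normalization, 0 and 1 without the intensity trend, 2711 and 2863 with library weights, 909 and 836 with limma-voom, 4 and 4 with the GC trend removed, and 0 and 0 with that and the block. Leaving out 1 library gave 0 to 1267 higher and 0 to 1084 lower, both highest without vehicle replicate 2. The cause was not tested.

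No list gene was called as reported. Chloride channel list calls were 1 higher and 2 lower at mean FPKM of at least 5, 1 higher with median-ratio scaling, 1 higher with quantile normalization, 9 and 6 with library weights, and 3 and 2 with limma-voom; leaving out 1 library gave 0 to 3 higher and 0 to 2 lower. Partner list calls were 1 lower at mean FPKM of at least 5, 6 and 8 with library weights and 1 lower with limma-voom; leaving out 1 library gave 0 to 2 in each direction. Glutathione transferase list calls were 3 and 5 with library weights and 1 lower with limma-voom. Depth limits CLIC2, CLIC5 and CLIC6, which had 0 to 22 fragments per library.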
